A study of Mus musculus with 2 samples.

Results

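The 7 mouse genes of the 3-beta-hydroxysteroid dehydrogenase family, Hsd3b1 to Hsd3b7, were chosen by symbol from the 55536 annotated genes measured in adrenal gland. Total RNA was sequenced from adrenal tissue of male B6CASTF1/J mice, hybrids of a laboratory strain and a wild-derived strain, at 25 days of age. The labels name no engineered allele and no treatment, and all samples form 1 group with 2 libraries, built from 300 ng of RNA plus ERCC spike-in transcripts. Whether the libraries are separate animals is unclear, since the labels of the tissue give animal 03 (replicate 1) and animal 04 (replicate 2), but the library descriptions and the donor label are those of a single animal. Differences between the libraries may therefore be technical, and the tests below compare these libraries and no conditions.

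3-beta-hydroxysteroid dehydrogenases oxidise the 3-hydroxyl group of delta-5 steroids and move the double bond, which turns pregnenolone into progesterone. Every active corticosteroid passes through this step in the adrenal cortex. Hsd3b1 is the main mouse enzyme of adrenal and gonad, and Hsd3b6 is known from the zona glomerulosa, Leydig cells and placenta. Hsd3b2 and Hsd3b3 are known from kidney and liver, while Hsd3b4 and Hsd3b5 act mainly as reductases of 3-keto steroids in kidney and male liver. Hsd3b7 is the most distant relative and acts on hydroxylated sterols in bile acid synthesis.

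The paralogs resemble each other so closely that the sequences set how well their reads can be told apart. The first 60 coding bases are shown for this reason, from the GENCODE M21 transcripts, with capitals where a base differs from that of Hsd3b1 at the same place counted from the start codon:
Hsd3b1: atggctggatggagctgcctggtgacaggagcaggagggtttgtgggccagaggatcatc
Hsd3b6: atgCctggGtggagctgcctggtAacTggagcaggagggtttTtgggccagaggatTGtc
Hsd3b2: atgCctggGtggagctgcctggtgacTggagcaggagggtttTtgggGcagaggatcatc
Hsd3b3: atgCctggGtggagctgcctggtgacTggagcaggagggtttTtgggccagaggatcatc
Hsd3b5: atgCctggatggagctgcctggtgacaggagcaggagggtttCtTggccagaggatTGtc
Hsd3b4: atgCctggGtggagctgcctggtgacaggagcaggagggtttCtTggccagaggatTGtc
Hsd3b7: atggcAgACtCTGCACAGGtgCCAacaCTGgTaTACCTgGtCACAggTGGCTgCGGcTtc
Over these bases Hsd3b2, Hsd3b3, Hsd3b4, Hsd3b5 and Hsd3b6 differed from Hsd3b1 at 5, 4, 6, 5 and 7 positions, and Hsd3b7 at 38.

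Over the whole coding sequence, of 1119 bases in each of the 6 clustered genes and 1107 in Hsd3b7, the family fell into sets. Hsd3b1, Hsd3b2, Hsd3b3 and Hsd3b6 shared 89.3% to 95.1% of aligned bases in their 6 pairs. Hsd3b4 and Hsd3b5 shared 95.2%, and the 8 pairs between the sets shared 79.5% to 82.7%. Hsd3b7 shared 54.2% to 55.3% with the other 6. The predicted gene Gm10681, which lies inside the cluster, had a coding sequence identical to that of Hsd3b4. Gm4450, just outside the cluster and named after its values were seen, matched Hsd3b4 at 99.6% of aligned bases.

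**Figure D1:**
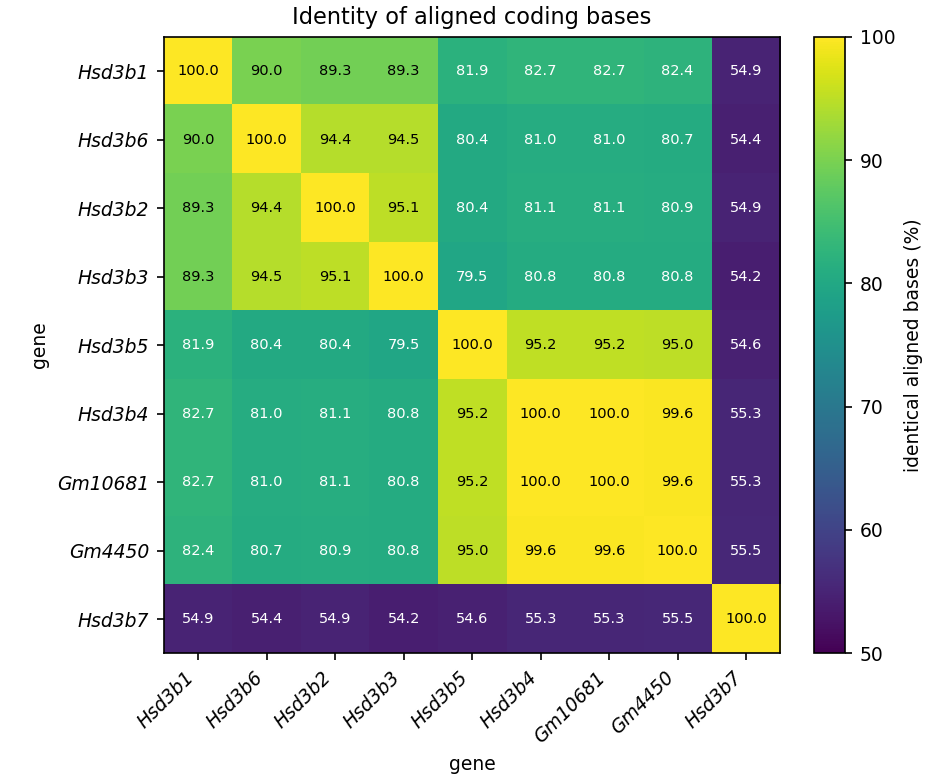
Percent of aligned coding bases that are identical for each pair of the 7 family members and of the near copies Gm10681 and Gm4450 (rows and columns: genes; colour and number: percent). Hsd3b4, Gm10681 and Gm4450 form a block at 99.6% to 100%, and the Hsd3b7 row stands at 54.2% to 55.5%.

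Exact sharing over a stretch of transcript was counted as well, in the reference sequence alone. Of all stretches of 100 bases in its transcripts, Hsd3b1 shared 0% with any other gene, Hsd3b6 3.11%, Hsd3b3 3.31%, Hsd3b2 6.90% and Hsd3b5 7.79%. Hsd3b4 shared 100%, all of them with Gm10681 and 73.9% also with Gm4450. Hsd3b7 shared 42.7% with Gm49388 (ENSMUSG00000108815.1, chromosome 7, 127785608 to 127803802), an annotated gene on the same strand that overlaps it, named after its values were seen. Over stretches of 31 bases the shares were 13.0% for Hsd3b1, 29.0% for Hsd3b6, 9.76% for Hsd3b3, 36.3% for Hsd3b2, 34.1% for Hsd3b5, 100% for Hsd3b4 and 54.8% for Hsd3b7. These shares depend on the annotated transcripts of a gene. Hsd3b3 shared 619 of 6345 stretches of 31 bases, against 241 of 1851 for Hsd3b1. The Hsd3b3 total includes Hsd3b3-205, a processed transcript of 4766 bases. In the reference, Hsd3b1 was thus fully distinct at the longer length and partly shared at the shorter. Reads with mismatches or from the other parental strain were not considered.

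In mm10, 6 members lie on chromosome 3 within 360.7 kb, all on the minus strand, and Hsd3b7 lies alone on chromosome 7. The span of the cluster holds 17 annotated genes, of which 7 are protein-coding (the 6 members and Gm10681) and 10 are pseudogenes. From low to high coordinate the members are Hsd3b4 (98499071 to 98510514), Hsd3b5 (98618634 to 98630252), Hsd3b2 (98709255 to 98724543), Hsd3b3 (98741523 to 98763127), Hsd3b6 (98805504 to 98814443) and Hsd3b1 (98852194 to 98859794). Hsd3b7 (ENSMUSG00000042289.11) spans 127800604 to 127803802 on the plus strand.

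The 2 libraries stood far apart in genes of other tissues, and most of the family also differed between them. Each held a similar depth, 35283841 and 35156690 expected counts, where an expected count is the authors' estimate of the reads that came from a gene. In replicate 2 all 12 hepatocyte markers were at least 2-fold higher, and their summed level was 60.04 TPM in replicate 1 against 25581 TPM in the other. None of the 12 was at 0 in either library. TPM is the authors' level per transcript length, scaled to a fixed total per library. Albumin, Alb, alone was at 16.3 and 11949 TPM. All 6 skeletal muscle markers were lower in replicate 2, with sums of 1143 and 1.84 TPM. The 8 kidney markers summed to 0.53 and 0.68 TPM, and 5 of 8 were at 0 in replicate 1 and 4 of 8 in replicate 2. The 3 with enough counts for the test were Aqp2, with 18 and 12 counts, Lrp2, with 60 and 111, and Slc12a3, with 2 and 10, and the last 2 were called higher in replicate 2. As a check of the adrenal label, each of the 9 chromaffin and 5 zona fasciculata markers was above 1 TPM in each library. At 2-fold, 0 of 9 chromaffin markers were apart, and 8 of 9 were lower in replicate 2 at any fold. Of the 5 zona fasciculata markers, 1 was at least 2-fold lower in replicate 2, Akr1b7 at 1394 and 420.6 TPM.

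Hsd3b1 (ENSMUSG00000027871.16) supplied nearly all of the family's RNA. It reached 3405 TPM in replicate 1 against 2015 TPM in the other library, on 190117 and 111262 expected counts, a mean of 2710 ± 983 TPM (SD, n = 2). Among 22015 nuclear protein-coding genes it had rank 1 in replicate 1 and rank 8 in replicate 2. The second quantification, which the authors made from the reads and an index rather than from alignments, placed it at 5837 and 3319 TPM, rank 3 and rank 10. Hsd3b1 was high in both libraries, and higher in replicate 1.

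The family as a whole took 0.344% of all TPM in replicate 1 and 0.218% in replicate 2, a mean of 0.281% ± 0.0886 (SD, n = 2). Of that, Hsd3b1 held 99.1% and 92.3%, a mean of 95.7% ± 4.82 (SD, n = 2). The other 6 members together had 31.2 TPM in replicate 1 and 168.6 TPM in replicate 2, so the smaller Hsd3b1 share in replicate 2 came with both less Hsd3b1 and more of the others.

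Hsd3b6 (ENSMUSG00000027869.14), the zona glomerulosa relative, was the steadiest of the other members. Its level was 18.97 TPM in replicate 1 and 16.28 TPM in replicate 2, on 1057 and 899 expected counts, a mean of 17.6 ± 1.90 TPM (SD, n = 2). Hsd3b1 was 179.5-fold above it in replicate 1 and 123.8-fold above it in replicate 2. The second quantification gave 29.9 and 24.6 TPM and ratios of 195.3 and 134.7. In bulk tissue, fewer cells of a type and less RNA per cell cannot be told apart, so this ratio belongs to the tissue as sampled.

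Hsd3b7, the bile acid enzyme, had 12.13 TPM in the first library and 67.93 TPM in the other, on 730.8 and 3941 expected counts. Its SD over the 2 libraries, 39.5 TPM, was as large as its mean of 40.0 TPM. It was present in both libraries and higher in replicate 2.

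The remaining 4 members were near 0 in the first quantification of replicate 1. Hsd3b3 (ENSMUSG00000062410.14) had 0.08 TPM in replicate 1, on 3.06 expected counts, and 49.37 TPM in replicate 2, on 2365. Hsd3b5 (ENSMUSG00000038092.6), the male liver reductase, had 0 counts in replicate 1 and 1485 in replicate 2, or 30.19 TPM. A count of 0 in replicate 1 allows up to 3 counts, or 0.0606 TPM, for Hsd3b5. For both genes nearly every read came from replicate 2.

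Hsd3b2 (ENSMUSG00000063730.13) had 0.02 TPM in replicate 1, on 3.06 expected counts, and 3.74 TPM in replicate 2, on 286.9. Hsd3b4 (ENSMUSG00000095143.5) had 0 counts in replicate 1, which allows up to 0.0588 TPM, and 52.2 in replicate 2, or 1.04 TPM. These were the lowest members in replicate 2. Hsd3b2, Hsd3b3, Hsd3b4 and Hsd3b5 summed to 0.1 TPM in replicate 1 against 84.3 TPM in replicate 2. For Hsd3b2 the second quantification gave 2.38 TPM, on 200.9 counts, and 6.43 TPM. At a TPM of at least 1, 3 members were detected in replicate 1 and 7 in replicate 2, and in the second quantification 4 and 7.

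**Figure D2:**
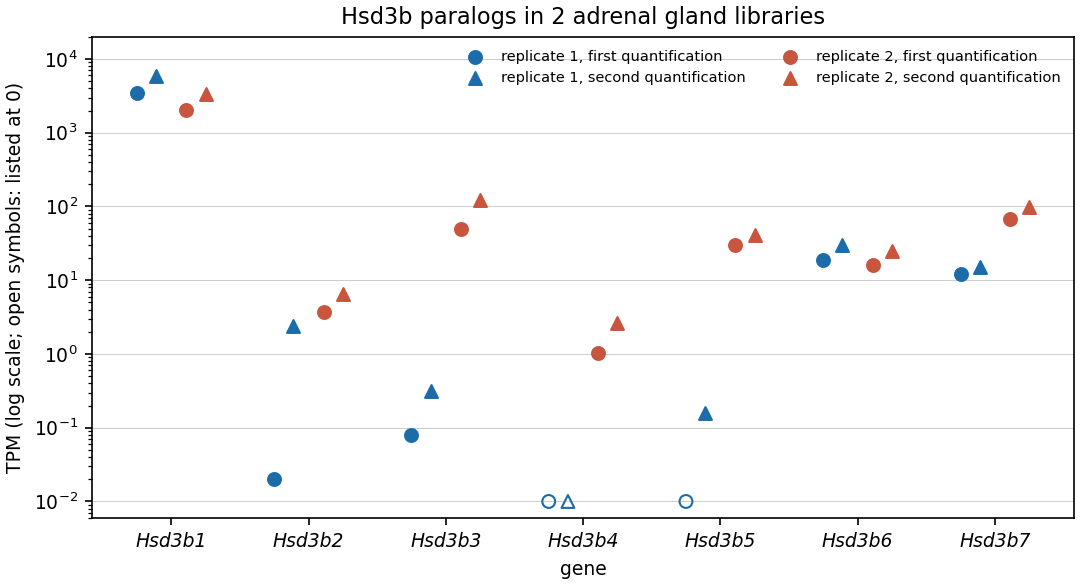
TPM of each member (log axis) in replicate 1 (blue) and replicate 2 (red), from the first quantification (circles) and the second (triangles), with open symbols for values listed at 0 or under 0.01. Hsd3b1 stands above 2000 TPM in both libraries, Hsd3b6 lies between 16 and 30 TPM, Hsd3b3, Hsd3b4 and Hsd3b5 have their high points in replicate 2, and the replicate 1 points of Hsd3b2 lie far apart (circle 0.02 TPM, triangle 2.38 TPM).

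By mean TPM the order was Hsd3b1, Hsd3b7, Hsd3b3, Hsd3b6, Hsd3b5, Hsd3b2 and Hsd3b4. Only Hsd3b1 was apart from its neighbour, since its lower value of 2015 TPM lay above the higher value of Hsd3b7, 67.93 TPM. Each other neighbouring pair overlapped between the libraries. Hsd3b6 was the second member in replicate 1 and the fifth in replicate 2, behind Hsd3b7, Hsd3b3 and Hsd3b5.

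The libraries were compared with a two-sided exact binomial test of each gene's counts, scaled by the TMM method of edgeR, with Benjamini-Hochberg adjustment over 19801 genes. This test covers counting error only. In it replicate 2 exceeded replicate 1 by at least 2-fold for 5 of 7 members, and 0 were at least 2-fold lower. Hsd3b2, Hsd3b3, Hsd3b4 and Hsd3b5 passed the filter of at least 10 counts in total only through replicate 2. These members could therefore only be called higher, and the count of 5 is a description. Of all genes tested, 8.56% were at least 2-fold higher and 2.29% at least 2-fold lower. The median log2 ratio was 4.35 over the members, with members at 0 set to the 3-count floor, and -0.01 over all genes tested. The 4.35 is itself the floor value of Hsd3b4. At any fold, 5 members were higher and 1 was lower, against 20.7% and 18.4% of all genes.

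Hsd3b3 was 930-fold higher in replicate 2, with a 95% counting interval of 318 to 4513 on the 3 counts of replicate 1. In the second quantification the ratio was 323-fold, with an interval of 170 to 706. Hsd3b5 was at least 584-fold higher against the floor of 3 counts, and the lower bound of its counting interval was 474-fold. The second quantification gave Hsd3b5 4.9 counts in replicate 1 and a ratio of 306-fold, with an interval of 131 to 944. The lower bound of each of these intervals was above 100-fold. Both genes passed the filter only through replicate 2, so the intervals describe these libraries and cover counting error alone.

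Hsd3b2 was 113-fold higher in replicate 2, with an interval of 38.2 to 550. This ratio depended on the quantification, because the second gave Hsd3b2 200.9 counts in replicate 1 and 555.9 in replicate 2, only 3.27-fold apart with an interval of 2.78 to 3.86. Hsd3b4 passed the filter only through replicate 2 and could only be called higher. It was at least 20.4-fold higher against the same floor, with a lower counting bound of 16.0-fold. Neither value covers the sharing of Hsd3b4 reads with its near copies, and its 52.2 counts had a posterior SD of 27.2. Hsd3b7 was 6.36-fold higher, with an interval of 5.88 to 6.89, and 7.33-fold higher in the second quantification.

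Hsd3b1 was lower in replicate 2. Its log2 ratio of replicate 2 over replicate 1 was -0.53, with a 95% counting interval of -0.55 to -0.52, which passed the test but was under 2-fold. The log2 ratio of Hsd3b6 was 0.00 with TMM scaling (interval -0.13 to 0.13, adjusted p = 1, exact binomial test) but -0.23 with total counts (adjusted p = 0.00131) and -0.35 with spike-in totals (adjusted p = 2.05e-07). The scaling thus decided whether Hsd3b6 passed the test, at under 2-fold in each case, and it left each of the 5 higher members higher. Over genes whose mean TPM reached 1, the median log2 ratio was -0.02 (TMM), -0.25 (total counts) and -0.37 (spike-in totals). Of all calls of at least 2-fold, 78.9%, 66.6% and 57.5% were higher in replicate 2 under these scalings.

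**Figure D3:**
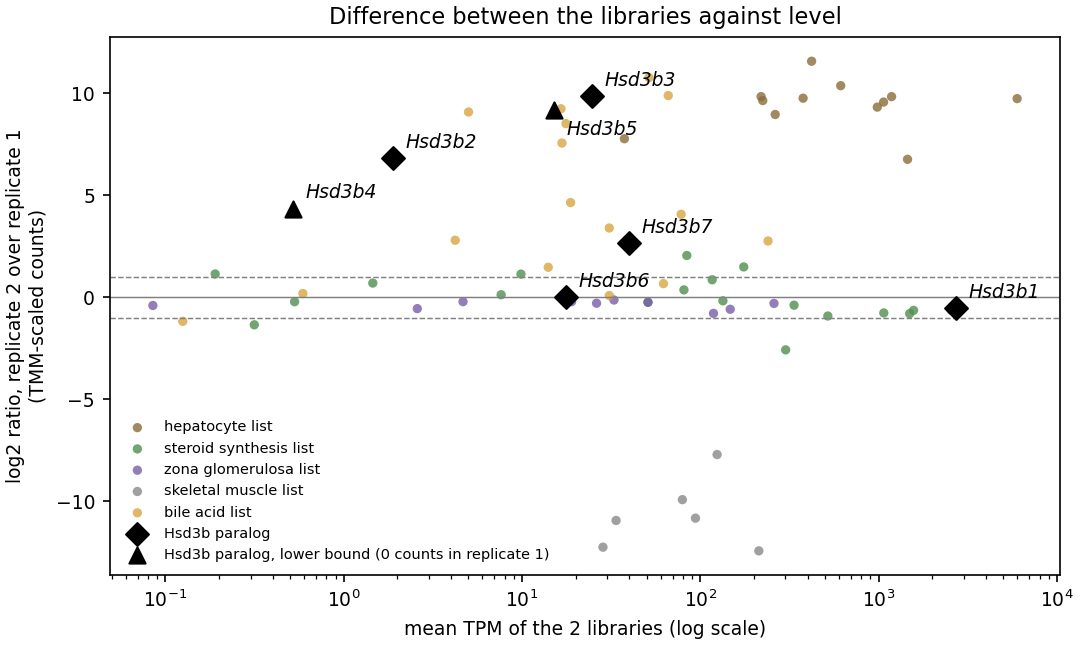
Log2 ratio of TMM-scaled counts, replicate 2 over replicate 1, against the mean TPM (log axis) for the Hsd3b members (black; triangles are lower bounds set by 3 counts) and for the listed marker genes (colours; list genes with 0 counts are set at the same floor), with dashed lines at 2-fold. Hsd3b1 and Hsd3b6 lie inside the dashed lines. By ratio, Hsd3b1 lies among the steroid synthesis and zona glomerulosa genes, and Hsd3b6 lies above every zona glomerulosa gene. Hsd3b3 and Hsd3b5 lie near a log2 ratio of 9 to 10, the height of most hepatocyte genes, and all 6 skeletal muscle genes lie below the lines.

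The gene lists around the family give the frame for these ratios. The lists, like the members, were chosen with earlier results of these data known. In the list of 19 steroid hormone genes, 6 were higher in replicate 2 and 9 lower at any fold, with 3 and 1 at least 2-fold apart, and the median log2 ratio was -0.21. Its most abundant genes lay close to Hsd3b1: the cholesterol carrier Star had 3265 and 1840 TPM, Cyp11a1, which cleaves the cholesterol side chain, 2028 and 1113 TPM, the 21-hydroxylase Cyp21a1 1997 and 989.7 TPM, and the 11-beta-hydroxylase Cyp11b1 1423 and 715.1 TPM. Their log2 ratios were -0.63, -0.64, -0.80 and -0.76. At any fold, all 5 zona fasciculata genes were lower in replicate 2, with a median log2 ratio of -0.76, and 8 of 10 zona glomerulosa genes were lower, with a median of -0.29. Hsd3b1, at -0.53, lay between these medians.

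The bile acid list holds 16 genes of the route in which Hsd3b7 acts. Of these 13 were higher in replicate 2 and 0 lower, 12 by at least 2-fold, with a median log2 ratio of 3.74. The abundant members were the sterol carrier Scp2, at 99.9 and 379.6 TPM, the acyl-CoA synthetase Slc27a2, at 9.93 and 146.2 TPM, the aldo-keto reductase Akr1c6, at 0.18 and 132 TPM, and the peroxisomal enzyme Hsd17b4, at 52.6 and 71.7 TPM. Hsd3b7 had a log2 ratio of 2.67, below the median of this list. In replicate 1, the library with few hepatocyte transcripts, Hsd3b7 was above 10 TPM. Of the 4 genes named here, Scp2 and Hsd17b4 were also above 10 TPM there, and Slc27a2 and Akr1c6 were below.

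The list of liver genes known to be higher in adult males bears on Hsd3b5. All 10 were at least 2-fold higher in replicate 2, with sums of 29.3 and 2021 TPM and a median log2 ratio of 9.17. Serpina1e led with 1.17 and 1559 TPM, followed by Cyp2d9 with 0.19 and 151.2 TPM, Nudt7 with 19.8 and 89.5 TPM and Mup20 with 0.04 and 47.4 TPM. Hsd3b5, at 0 and 30.19 TPM, had a log2 ratio of at least 9.19. The 5 higher members shared their direction with the hepatocyte markers, as did each of the 1695 genes called at least 2-fold higher in replicate 2. The part of those markers' cells in the result was not tested. The kidney markers, whose summed level is given above, bear on Hsd3b2, Hsd3b3 and Hsd3b4, and their part was not tested either.

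For each member, the 3 listed genes with the nearest log2 ratio were taken from a pool of 110, as a description over 2 libraries. Every pool gene with a ratio above that of Sdr42e1, 4.38, came from the hepatocyte, male liver or bile acid lists. The makeup of the pool thus fixed the lists from which the neighbours of Hsd3b2, Hsd3b3 and Hsd3b5 came, and no origin follows from them. Those of Hsd3b1 were the nuclear receptor Nr0b1 at -0.54, the angiotensin receptor Agtr1b at -0.55 and Dab2 at -0.59, all genes of the cortex. Those of Hsd3b6 were the chromaffin factor Phox2a at 0.01, the macrophage gene Lyz2 at -0.06 and the bile acid enzyme Akr1d1 at 0.09. Those of Hsd3b3, at 9.86, were Cps1 and Apoa2 at 9.84 and Cyp4a12a at 9.84, all expressed in hepatocytes. Those of Hsd3b5, whose own ratio of 9.19 is a lower bound, were the conjugating enzyme Baat at 9.25, the rate-limiting bile acid enzyme Cyp7a1 at 9.09 and Apoa1 at 9.33. Cyp7a1 also had 0 counts in replicate 1, so its order relative to Hsd3b5 is not defined. Hsd3b2, at 6.82, was nearest to transferrin, Trf, at 6.77, then to Cyp8b1 at 7.57 and Ugt2b38, a lower bound as well, at 5.92. Hsd3b7 was nearest to Elovl3 at 2.69, Scp2 at 2.76 and Slc12a3 at 2.56, the last on 2 and 10 counts. Hsd3b4, whose ratio of 4.35 is a lower bound, lay beside Sdr42e1 at 4.38, Gata4 at 4.21 and Slc27a2 at 4.07.

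Other enzymes of the 3-beta-hydroxysteroid dehydrogenase type were looked up by symbol only. Of 4 symbols listed, 2 were found. The annotation was not searched for further relatives, and Gm10681 and Gm4450 were not in this list. Nsdhl, which acts in cholesterol synthesis, was at 12.6 and 19.9 TPM, and Sdr42e1 was at 0.43 and 9.49 TPM.

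The highest member lies at an end of the cluster. Hsd3b1 is the member at the upper end, Hsd3b6 starts 45.4 kb below it, and Hsd3b3, Hsd3b2, Hsd3b5 and Hsd3b4 start 96.7, 135.3, 229.5 and 349.3 kb below it. In the first quantification of replicate 1, Hsd3b1 and Hsd3b6 were the cluster members above 1 TPM, and the 4 farther down had 3.06 counts or fewer. In the second quantification Hsd3b2 was also above 1 TPM there, at 2.38 TPM. Levels in replicate 2 did not follow position, since Hsd3b3 and Hsd3b5 were above Hsd3b6. Beyond Hsd3b1, 14.7 kb away, lies Hao2, a peroxisomal hydroxyacid oxidase named after its values were seen. Hao2 was at 123.3 and 71.3 TPM, and its log2 ratio of -0.56 was close to that of Hsd3b1. The 10 pseudogenes of the span had at most 6.04 expected counts in either library.

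**Figure D4:**
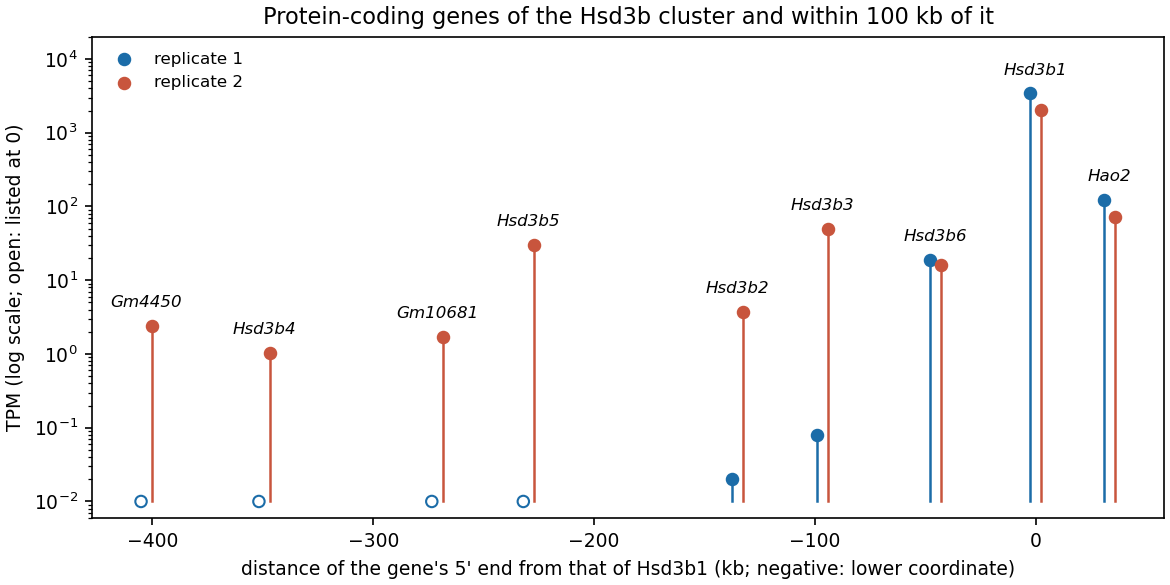
TPM (log axis) of the protein-coding genes of the chromosome 3 cluster and of its neighbours Hao2 and Gm4450 in replicate 1 (blue) and replicate 2 (red), against the distance of each gene's 5' end from that of Hsd3b1 in kb; open circles are listed at 0. Hsd3b1, Hsd3b6 and Hao2 are above 10 TPM in both libraries, and the genes from Hsd3b3 downward are above 1 TPM in replicate 2 alone.

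The low counts of Hsd3b4 cannot be assigned to this gene with confidence. The deposited posterior SD, the spread of a count over the ways reads can be shared between genes, was 27.2 counts for Hsd3b4 in replicate 2, or 52.0% of its 52.2 counts. Gm10681 had 86.7 counts with a posterior SD of 31.9%, and Gm4450 had 95.04 counts with a posterior SD of 9.31%. Over all genes with at least 10 counts in a library, 3.9% had a posterior SD of at least 10% of the count in replicate 1 and 3.92% in replicate 2. The sum of Hsd3b4, Gm10681 and Gm4450 was 0 counts in replicate 1 and 234 in replicate 2, and 5.08 and 240.6 in the second quantification. The sum is the value that does not rest on how reads were split between these genes.

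For the other members the posterior SD was smaller in replicate 2. There the posterior SD was 0% of the count for Hsd3b1, 0.269% for Hsd3b5, 0.387% for Hsd3b3, 0.458% for Hsd3b7, 0.697% for Hsd3b6 and 2.37% for Hsd3b2. In replicate 1 it was 2.81% for Hsd3b7, and 12.1% for Hsd3b2 and 15.7% for Hsd3b3, each on 3.06 counts. The overlapping Gm49388 had 264.9 and 315.6 counts with posterior SDs of 29.1% and 19.4%, and 634.4 and 1089 counts in the second quantification. Hsd3b7 had 599.2 and 3717 counts in the second quantification, so both genes differed between the quantifications, while the direction for Hsd3b7 was the same in both.

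TPM of the second quantification was generally above that of the first, by a median log2 ratio of 0.78 in replicate 1 and 0.73 in replicate 2 over nuclear protein-coding genes. After this shift was taken off, 0 of 7 members differed at least 2-fold the same way in both libraries, and no test applies because both read the same libraries. Of 13626 genes, 1.46% were at least 2-fold higher and 0.528% at least 2-fold lower in the second. Without the shift taken off, 2 members were higher, Hsd3b3 and Hsd3b4, the latter listed at 0 in the first quantification of replicate 1. Hsd3b1 differed by -0.01 on the log2 scale in both libraries, and Hsd3b6 differed by -0.13 in both. Hsd3b2 in replicate 1 stood out, with a log2 ratio of 6.11 against 0.05 in replicate 2.

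The difference for Hsd3b2 sat on a single transcript. The second quantification put 100% of Hsd3b2 on Hsd3b2-202 in both libraries, a transcript of 3695 bases whose coding part ends at base 1441. The first put 29.96% on it in replicate 2 and the rest on Hsd3b2-201. Of its stretches of 31 bases, 20.1% also occur in transcripts of 309 genes outside the family. Of its stretches of 100 bases, 50 of 3596 occur in 5 other genes, all between bases 2725 and 3424, beyond the coding part. Whether reads of those genes were counted on Hsd3b2-202 was not tested.

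The transcripts of Hsd3b1 were also divided differently. Hsd3b1-201, with 4 exons, held 63.4% and 66.7% of the gene in the first quantification and 33.4% and 33.8% in the second. Hsd3b1-202, with 5 exons, held the rest. Both carry the same coding sequence, with 185 bases before it in Hsd3b1-201 and 375 in Hsd3b1-202. The quantifications differed far more than the libraries, so these tables do not settle which transcript of Hsd3b1 led.

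For Hsd3b6, Hsd3b6-201 held 72.7% and 71.6% in the first quantification and 97.8% and 100% in the second. Hsd3b7-201 led Hsd3b7 in both, with 66.5% and 79.6% in the first and 69.0% and 68.6% in the second. Hsd3b3 was read in replicate 2 alone, since replicate 1 had 3.06 counts. There Hsd3b3-204 held 72.9% in the first quantification and 15.4% in the second, where Hsd3b3-206 held 52.3%. Hsd3b4 was on Hsd3b4-201 in the first and on Hsd3b4-202 in the second, and Hsd3b5 has 1 annotated transcript.

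**Figure D5:**
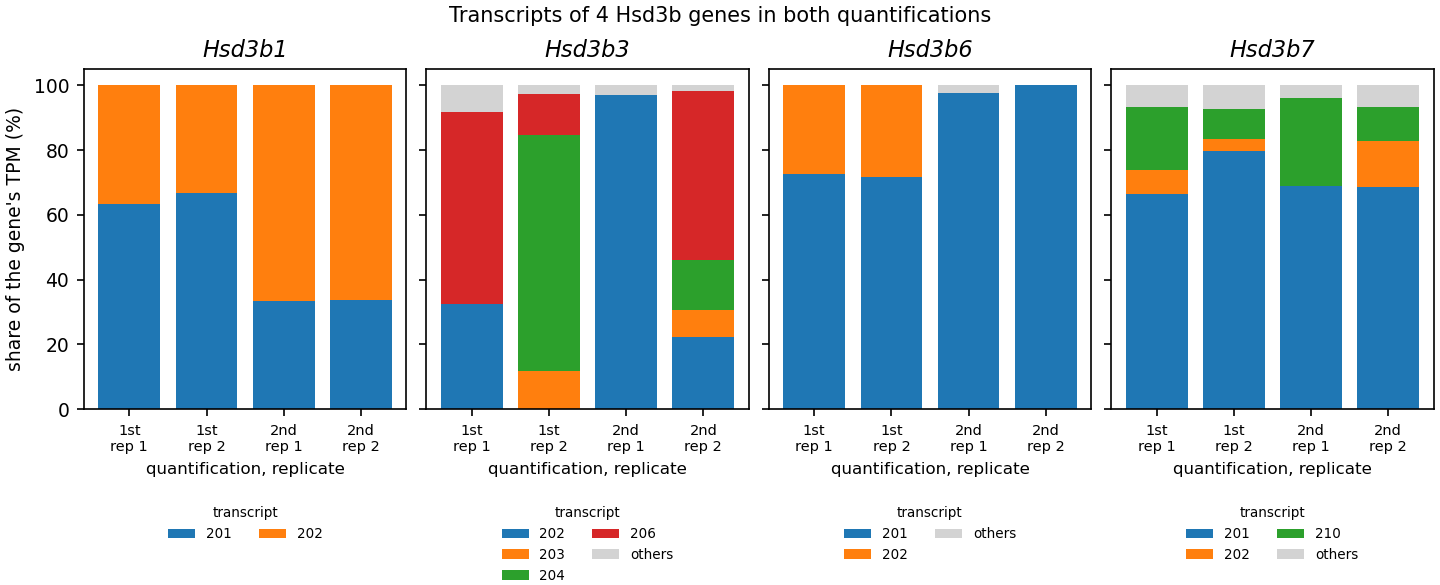
Share of the gene's TPM (percent) on each annotated transcript of Hsd3b1, Hsd3b3, Hsd3b6 and Hsd3b7, by quantification (1st, 2nd) and replicate; transcripts under 10% in all 4 columns are pooled as others. The 2 replicates of Hsd3b1 look alike within each quantification, its 2 quantifications do not, and the replicate 1 columns of Hsd3b3 rest on 3.06 and 8.5 counts.

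Hsd3b3 and Hsd3b5, the 2 members with the largest ratios between the libraries, also had the most similar promoters. All 7 members have an entry in the RefSeq promoters of GRCm38.p6, 9 entries in all, and the 250 bases before each start were compared. The pair is shown for this reason, 5′ to 3′ on the minus strand of chromosome 3, with capitals where the aligned bases are identical:
Hsd3b3 (chr3:98763129-98763378): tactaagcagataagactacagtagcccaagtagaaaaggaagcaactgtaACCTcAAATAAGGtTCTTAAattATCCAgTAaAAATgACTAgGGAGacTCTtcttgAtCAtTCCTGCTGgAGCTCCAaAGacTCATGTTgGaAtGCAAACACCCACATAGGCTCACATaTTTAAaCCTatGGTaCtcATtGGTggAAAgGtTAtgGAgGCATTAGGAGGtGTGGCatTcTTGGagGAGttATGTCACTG
Hsd3b5 (chr3:98645535-98645784): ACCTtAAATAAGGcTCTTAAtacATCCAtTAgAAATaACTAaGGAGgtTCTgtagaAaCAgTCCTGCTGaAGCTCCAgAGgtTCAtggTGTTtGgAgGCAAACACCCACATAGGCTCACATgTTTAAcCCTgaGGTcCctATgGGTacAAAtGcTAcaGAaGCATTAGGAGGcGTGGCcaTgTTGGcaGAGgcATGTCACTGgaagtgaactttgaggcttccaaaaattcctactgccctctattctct
Of 199 aligned bases, 151 or 75.9% were identical. The other 32 pairs of entries from different members had 36.7% to 54.3%, with a median of 47.3%. The coding sequences of the same pair shared 79.5%, the lowest value among the clustered members. The RefSeq start of Hsd3b5 lies 15.3 kb upstream of the GENCODE 5' end on which its counts rest.

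The promoter of Hsd3b1, the member high in both libraries, is shown for comparison (chr3:98859795-98860044, minus strand), with capitals where it matches TTCNNNGAA, the core of the STAT5 motif:
Hsd3b1: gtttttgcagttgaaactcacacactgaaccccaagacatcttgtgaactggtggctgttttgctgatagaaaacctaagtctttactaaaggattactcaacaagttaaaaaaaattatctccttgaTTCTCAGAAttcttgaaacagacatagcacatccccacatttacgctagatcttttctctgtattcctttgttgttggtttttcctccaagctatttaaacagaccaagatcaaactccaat
On both strands, TTCNNNGAA was found in Hsd3b1 and Hsd3b7, and in 7.02% of 32851 promoters of the same length. GTTAAT, the core of the HNF1 motif, was found in Hsd3b4 and Hsd3b6, and in 6.43% of promoters. AAGGTCA, the core bound by NR5A1, was in no member and in 4.08% of promoters, and TATAAA was in no member and in 12.4%. These matches describe the letters of these windows alone.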

How the data were processed

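Total RNA-seq of 1 group of 2 adrenal libraries was read from the deposited tables. Per the deposited text files, both quantifications used the mm10 assembly, which is of a parent strain, and the M21 annotation. The first used reads aligned to transcripts, the second used reads with an index. Not given in the sources used here are tools, versions and the use of strand in counting. The authors' expected counts (first) and estimated counts (second), per the file headers, are unscaled. The authors' TPM is relative to all listed sequences, so abundant short RNAs lower it for all other genes. The authors' percent of a gene's TPM on each transcript was used for the first quantification, per the file headers, and computed from TPM for the second.

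The members and gene lists were chosen with earlier results of these data known. Expected counts were rounded, genes with at least 10 counts were tested (two-sided exact binomial, 1 library a side, sizes scaled by TMM in edgeR 4.0.16), and calls needed an adjusted p under 0.05 and at least 2-fold. Counts of 0 were set to a floor of 3. Intervals (95%, exact Clopper-Pearson on the share of counts) and floors cover counting error only. With 1 group no test between conditions was possible. On simulated data the test recovered 96.5% of 200 genes changed 2.5-fold, with 1 false 2-fold call among 19836 genes. Both simulated libraries were drawn from the mean of the real libraries with counting error alone. This checks the calculation and gives no error rate for the real libraries, which can differ for other reasons. Named genes were the 7 members, the genes of the cluster, at most 4 genes of highest mean TPM per list, and the 3 listed genes nearest to each member by log2 ratio; Hao2, Gm4450 and Gm49388 lie outside this rule. Of all lists, cortex regulators (2 of 8 at least 2-fold higher, 0 lower), the X-zone (1 of 3 higher, 1 lower), Leydig (0 of 3 tested), adipocyte (0 of 6) and macrophage (0 of 6) markers were also measured. Coding sequences came from GENCODE M21 and were aligned with Biopython 1.88. Alternatives were other scalings, filters, denominators, the second quantification and single libraries.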

Additional observations from a re-analysis of the deposited data

How the results depend on the processing

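With 1 library a side, the comparison between the libraries could not be repeated without a replicate, and no paired analysis was possible because there is 1 group. The count of 5 members at least 2-fold apart, all higher in replicate 2, was also 5 with total counts, spike-in totals, all genes with at least 1 count and the second quantification, and it was 6 (5 higher, 1 lower) with calls at any fold. In the first quantification, Hsd3b2, Hsd3b3, Hsd3b4 and Hsd3b5 passed the filter of at least 10 counts only through replicate 2. With total counts and spike-in totals they could therefore only be called higher. The log2 ratio of Hsd3b6 was 0.00 with TMM scaling and turned negative with total counts (-0.23), spike-in totals (-0.35) and TPM (-0.22). The family share of TPM was 0.281%, and became 0.832% over nuclear protein-coding genes and 0.475% in the second quantification; single libraries gave 0.218% to 0.344%. The Hsd3b1 share of the family ranged from 92.3% to 99.1% over single libraries. The count of members at least 2-fold apart between quantifications was 0, against 2 (Hsd3b3 and Hsd3b4) without taking off the median shift; single libraries gave 0 to 1, the 1 being Hsd3b2 in replicate 1. For these changes the cause was not tested. Low counts, at a similar depth of both libraries, limit the ratios of Hsd3b2, Hsd3b3, Hsd3b4 and Hsd3b5. Each had at most 3.06 counts in replicate 1 in the first quantification. There the second quantification gave 200.9, 8.5, 0 and 4.9.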
